A study of Arabidopsis thaliana with 27 samples.

Results

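Seedlings of the glycolate oxidase mutant gox2 were compared with wild-type (WT) seedlings after 30 min of cadmium (Cd), and the members are 6 of the 27 expression arrays of the series, 3 with each label. They were chosen by their labels alone. The first group is the Arabidopsis thaliana mutant gox2 in the Col-0 background, given 100 μM Cd for 30 min, and the second is Col-0 WT given the same Cd for the same time. Both were about 14 days old, and each replicate was an independent pool of at least 5 seedlings. The other 21 arrays hold the untreated controls and 24 h Cd groups of these lines and 3 groups of the overexpression line 35S::GOX2. The labels name leaves as the tissue while the protocols describe seedlings. The study's methods give 1 h where the labels give 30 min, but its list of profiles and a figure legend also give 30 min. GOX2 is a peroxisomal enzyme of photorespiration that oxidizes glycolate to glyoxylate and releases H2O2. Cd disturbs the redox state of plant cells, binds thiols and competes with iron and zinc for uptake, so genes of glutathione, sulfur and metal homeostasis are known Cd-responsive groups. Levels below are log2 of the deposited intensity after quantile normalization over the 27 arrays, and differences are gox2 minus WT on that scale.

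GOX2 (AT3G14415) was low under both labels, so the arrays labelled WT went against their label. Its level was 9.79, 10.01 and 10.04 on the gox2-labelled arrays, against 10.03, 10.45 and 10.43 on the WT-labelled arrays, and the labels' values overlapped (log2 fold change -0.36, SE 0.12, adjusted p = 0.0651). Without Cd it averaged 14.13 ± 0.10 under the label gox2 and 13.73 ± 0.04 under the label WT (SD, n = 3 each), and it was also high in gox2 Cd 24 h (13.89) and low in 35S::GOX2 control (9.68). These 3 groups thus went against their labels as well, and whether labels were exchanged was not tested. The files do not place the probes relative to the mutation. The groups are therefore called by their labels throughout, and no direction below is shown to follow from the loss of GOX2. GOX1 was at 14.98, 15.10 and 15.07 on the gox2-labelled arrays, against 15.23, 15.16 and 15.22 on the WT-labelled arrays, and its adjusted p was 0.104. GOX3 (0.29, adjusted p = 0.375), HAOX1 (0.03, adjusted p = 0.819) and HAOX2 (-0.07, adjusted p = 0.69), the other 2-hydroxy-acid oxidases, also missed the threshold. In a fit to the 6 arrays alone GOX3 passed (adjusted p = 0.0273), and it was the 1 of the 5 family members to do so. That fit called 9.53% of all features higher.

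No label names a slide, and slides were inferred from the leading characters of each array's image identifier. By that inference the 3 gox2-labelled arrays lay on 1 slide and the 3 WT-labelled arrays on another. Slide and label therefore cannot be told apart in any difference below. Across all features, each relative to its mean over the 27 arrays, the mean correlation was 0.66 within the gox2-labelled arrays and 0.68 within the WT-labelled arrays. Between the labels it averaged 0.04. Outside their own group, the gox2-labelled arrays were most like WT Cd 24 h, with a mean correlation of 0.43, and the WT-labelled arrays were most like 35S::GOX2 control, with 0.36. The arrays of WT Cd 24 h lay on the slide of the gox2-labelled arrays. WT control and 35S::GOX2 control also lay on that slide, and their mean correlations with the gox2-labelled arrays were -0.04 and -0.28. In 4 other groups not every array was closest to an array of its own label, and in gox2 control and gox2 Cd 24 h none was.

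Of 37118 features, 1363 were higher and 1483 lower on the gox2-labelled arrays (limma fit over the 27 arrays, Benjamini-Hochberg adjusted p under 0.05), or 3.67% and 4% of those tested and 7.67% in all. The 3 arrays of each label did not overlap for 42.2% of features, 22.3% higher and 20% lower. A log2 fold change of at least 1 was also reached by 276 of the features that were higher and 245 of those that were lower. The median over all features was 0.00 and the SD 0.36. The SEs below come from this 27-array fit, which pools the spread over the 9 groups, so they are not the spread of the 6 arrays alone. The median SD of a feature was 0.09 on the gox2-labelled and 0.10 on the WT-labelled arrays. Over the 9 groups it ran from 0.09 in WT Cd 24 h to 0.19 in gox2 Cd 24 h. A fit to the 6 arrays alone, in which the spread comes only from these 2 groups, called 3539 features higher (9.53%) and 2990 lower (8.06%). It shared 2179 calls with the 27-array fit. Its counts are given beside the gene groups as "the 6-array fit", because many members passed there and missed in the 27-array fit. That choice was made after the values were seen. Each label lay on 1 slide, so the spread in this fit holds no variation between slides, and its small adjusted p values do not allow for it. When slide entered as a random block, 7 features passed, FER1 among them, and every other named gene chosen by rule lost its call. Only gox2 Cd 24 h had arrays on more than 1 slide, so this fit cannot separate slide from label. Leaving out 1 array gave 573 and 458 calls without gox2-labelled replicate 1 or 2, and 421 and 799 without WT-labelled replicate 1 or 2. Of the 98 genes chosen for naming by rule, 16 passed whichever of the 6 arrays was left out: FER1, FER4, GSTF12, GSTU22, SULTR1;2, MLS, NAC103, ABCG37, CYP82C3, PGLP1, RBCS1B, SAP10, AT3G54520, AT1G76470, AT3G46840 and AT4G16820. The other named calls were lost without at least 1 of these arrays.

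**Figure D1:**
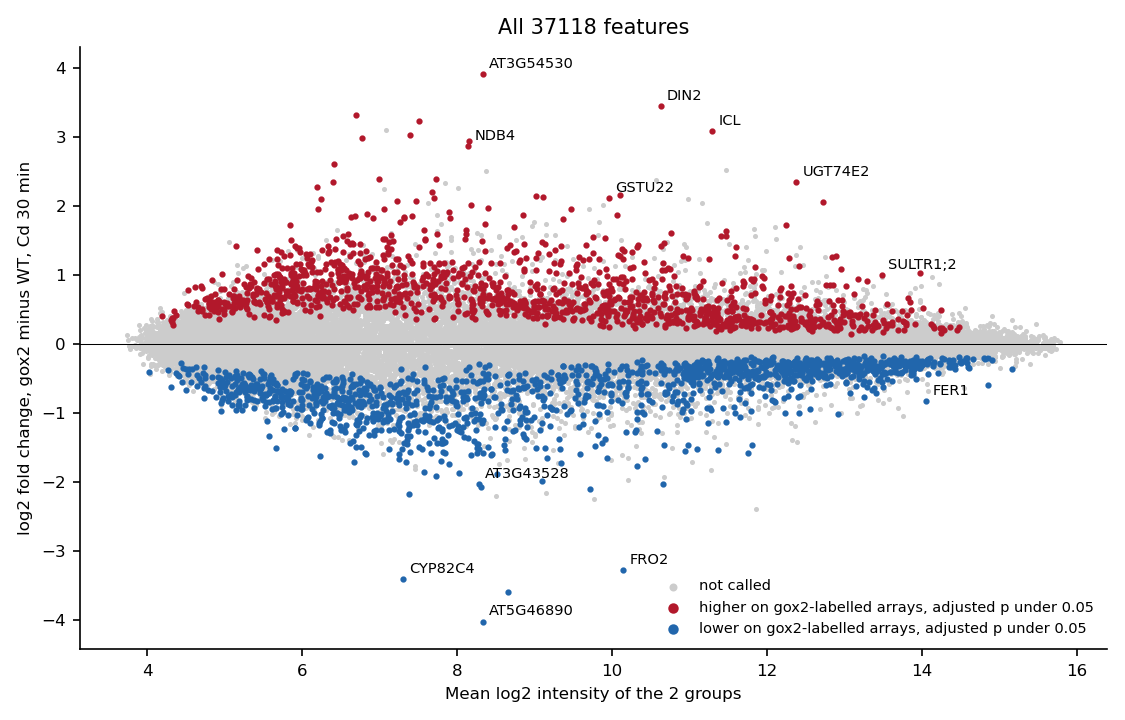
Log2 fold change of each feature (gox2-labelled minus WT-labelled arrays, Cd 30 min) against the mean log2 intensity of the 2 groups. Red points (1363) are higher and blue points (1483) lower at an adjusted p under 0.05, and a few genes of the text are named.

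Genes of the tau class of glutathione S-transferases, enzymes that conjugate glutathione to electrophiles, were among the larger rises on the gox2-labelled arrays. Of 28 tau members 4 rose and 2 fell in the 27-array fit, against 3.67% and 4% of all features. The 6-array fit called 13 higher and 4 lower, against 9.53% and 8.06%. The median log2 fold change was 0.31. GSTU22 was at 11.16, 11.02 and 10.87 on the gox2-labelled arrays, against 9.0, 8.87 and 8.83 on the WT-labelled arrays (log2 fold change 2.12, SE 0.36, adjusted p = 0.00409). GSTU25 was at 13.83, 13.74 and 13.69 on the gox2-labelled arrays, against 11.84, 11.71 and 11.52 on the WT-labelled arrays (log2 fold change 2.06, SE 0.53, adjusted p = 0.0263). For both genes all gox2-labelled arrays lay above all WT-labelled arrays. GSTU11 (1.70, adjusted p = 0.0415) and GSTU24 (1.27, adjusted p = 0.0471) rose as well. GSTU3 had a log2 fold change of 1.96 and GSTU9 of 1.46, and these missed in the 27-array fit (adjusted p = 0.121 and 0.0689) and passed in the 6-array fit (adjusted p = 0.000749 and 0.000961). The class did not move as a whole: GSTU20 fell by 0.59 (adjusted p = 0.0334) and GSTU18 by 0.47 (adjusted p = 0.0411). GSTU20 was at 14.56, 14.58 and 14.53 on the gox2-labelled arrays, against 15.15, 15.17 and 15.12 on the WT-labelled arrays, among the brightest of the class. Several tau genes are tandem copies of similar sequence, and their probes may share signal. In the phi class 0 of 13 members rose and 1 fell (2 and 2 in the 6-array fit). That member was GSTF12, which is needed for anthocyanin transport to the vacuole (log2 fold change -0.95, SE 0.13, adjusted p = 0.000956).

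Other genes of electrophile detoxification lay mostly on the same side. Of 23 members 3 rose and 1 fell in the 27-array fit, against 3.67% and 4% of all features. In the 6-array fit 16 rose and 1 fell, against 9.53% and 8.06%. The groups' arrays did not overlap for 20 members that were higher and 1 that was lower, against 22.3% and 20% of all features, and the median was 0.39. UGT74E2, a glycosyltransferase of the auxin indole-3-butyric acid, was at 13.58, 13.55 and 13.54 on the gox2-labelled arrays, against 11.21, 11.30 and 11.12 on the WT-labelled arrays (log2 fold change 2.35, SE 0.72, adjusted p = 0.0492). UGT73B3, another glycosyltransferase, was at 12.38, 12.24 and 12.43 on the gox2-labelled arrays, against 11.38, 11.69 and 11.57 on the WT-labelled arrays (log2 fold change 0.81, SE 0.17, adjusted p = 0.00965). OPR1, a 12-oxophytodienoate reductase, rose by 0.24 (adjusted p = 0.0359), while TRX5, a cytosolic thioredoxin, fell by 0.48 (adjusted p = 0.0173). The cytochrome P450 gene CYP81D8 had a log2 fold change of 0.97 and the vacuolar transporter ABCC3 of 0.61, and both passed only in the 6-array fit (adjusted p = 0.0027 and 0.00336).

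**Figure D2:**
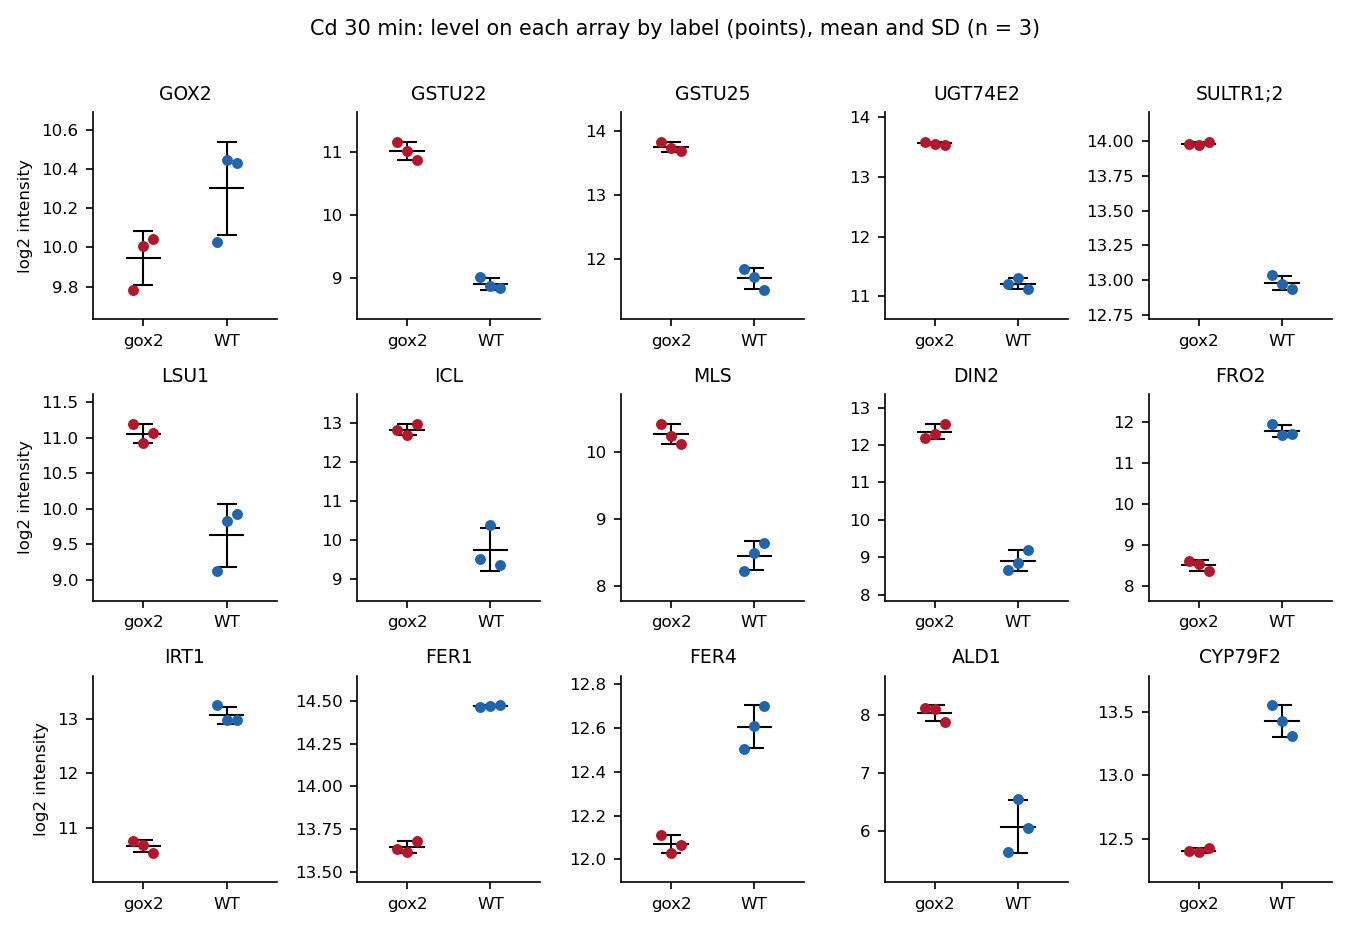
Log2 intensity of 15 genes on the 3 gox2-labelled (red) and 3 WT-labelled (blue) arrays after 30 min of Cd, with mean and SD, and each panel has its own axis, which does not start at 0. GOX2 overlaps between the labels, and the other 14 genes do not.

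Sulfur uptake genes were higher on the gox2-labelled arrays. SULTR1;2 and SULTR1;1 are the high-affinity transporters that take up sulfate in roots. SULTR1;2 was at 13.98, 13.97 and 13.99 on the gox2-labelled arrays, against 13.03, 12.97 and 12.94 on the WT-labelled arrays (log2 fold change 1.0, SE 0.14, adjusted p = 0.00132). SULTR1;1 was at 13.0, 12.92 and 12.81 on the gox2-labelled arrays, against 11.86, 11.66 and 11.48 on the WT-labelled arrays (log2 fold change 1.25, SE 0.33, adjusted p = 0.0279). They were the 2 of 24 sulfate uptake and assimilation genes that rose, against 3.67% of all features. In that list 0 fell, and the median was 0.03. The 6-array fit called 5 higher, among them the plastid transporter gene SULTR3;1 (0.63, adjusted p = 0.0029) and APR3, an APS reductase (0.42, adjusted p = 0.0104). Of 10 marker genes of sulfur deficiency 2 rose, and 9 did in the 6-array fit, against 3.67% and 9.53% of all features. The median of these markers was 0.90. LSU1 (RESPONSE TO LOW SULFUR) was at 11.20, 10.92 and 11.06 on the gox2-labelled arrays, against 9.12, 9.83 and 9.93 on the WT-labelled arrays (log2 fold change 1.44, SE 0.42, adjusted p = 0.0426). WT-labelled replicate 1 was the lowest of the 6. LSU3 rose by 1.12 (adjusted p = 0.0453). BGLU28, a beta-glucosidase that breaks down glucosinolates, had the largest difference of the list at 1.69 (adjusted p = 0.072, and 0.000735 in the 6-array fit). Of 7 genes listed under glutathione and phytochelatin synthesis, the Cd-chelating pathway, 0 rose and 0 fell. GSH1, the first enzyme of glutathione synthesis, had a log2 fold change of 0.10 (adjusted p = 0.266). In the 6-array fit 1 listed member passed, AT5G26220 (0.74, adjusted p = 0.0073), a gamma-glutamyl cyclotransferase gene and not one of synthesis.

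FRO2 and CYP82C4 of the iron uptake genes, and the genes of iron storage, were lower on the gox2-labelled arrays. Plants under iron deficiency raise FRO2, which reduces ferric iron at the root surface, and IRT1, which imports ferrous iron and also carries Cd, through the bHLH factors of subgroup Ib. Ferritins store iron in plastids and are induced when iron is plentiful. FRO2 was at 8.61, 8.54 and 8.36 on the gox2-labelled arrays, against 11.96, 11.68 and 11.71 on the WT-labelled arrays (log2 fold change -3.28, SE 0.90, adjusted p = 0.0329). CYP82C4, a hydroxylase of coumarin synthesis, was at 5.65, 5.62 and 5.54 on the gox2-labelled arrays, against 8.90, 8.86 and 9.26 on the WT-labelled arrays (log2 fold change -3.40, SE 0.91, adjusted p = 0.0295). The gox2-labelled arrays were all between 5.54 and 5.65 for CYP82C4, in the dim range of the arrays. IRT1 was at 10.76, 10.70 and 10.54 on the gox2-labelled arrays, against 13.24, 12.97 and 12.98 on the WT-labelled arrays and missed the threshold (log2 fold change -2.40, SE 0.79, adjusted p = 0.0629), with an adjusted p of 0.000388 in the 6-array fit. ABCG37, which exports coumarins, went the other way and rose by 0.58 (adjusted p = 0.0109). In all, 1 of 17 uptake and coumarin genes rose and 2 fell, against 3.67% and 4% of all features. The 6-array fit called 2 higher and 6 lower, against 9.53% and 8.06%, and the median was -0.05.

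Among 17 regulators of iron status and nicotianamine genes 1 fell in the 27-array fit, the nicotianamine synthase gene NAS3 (-0.43, adjusted p = 0.00993), and 0 rose. The 6-array fit called 8 lower and 1 higher, against 8.06% and 9.53% of all features. The subgroup Ib factors bHLH38 (-2.24), BHLH100 (-1.93), bHLH39 (-1.65) and BHLH101 (-1.20) had non-overlapping arrays, with adjusted p values of 0.129, 0.0854, 0.148 and 0.438. In the 6-array fit all 4 passed, the highest adjusted p being 0.00727. All 4 storage genes fell in both fits, against 4% and 8.06% of all features, with a median of -0.68. FER1 was at 13.64, 13.62 and 13.69 on the gox2-labelled arrays, against 14.47, 14.47 and 14.47 on the WT-labelled arrays (log2 fold change -0.82, SE 0.09, adjusted p = 0.000125). With slide as a random block, a fit that cannot separate slide from label, its adjusted p was 0.0189. FER4 was at 12.11, 12.03 and 12.07 on the gox2-labelled arrays, against 12.50, 12.61 and 12.70 on the WT-labelled arrays (log2 fold change -0.53, SE 0.11, adjusted p = 0.00932). FER3 fell by 0.38 (adjusted p = 0.0155) and AT1G21140, a vacuolar iron transporter-like gene, by 0.90 (adjusted p = 0.0347). FRO2 and IRT1 are root genes, and the mean of 20 root markers, each relative to its mean over the 27 arrays, was -0.03 to 0.02 on the gox2-labelled arrays and 0.16 to 0.26 on the WT-labelled ones. The part of root material in the iron values was not tested. In a bulk sample fewer cells of a type and less RNA per cell cannot be told apart.

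In the peroxisome's beta-oxidation and glyoxylate cycle, ICL and MLS were the genes that rose. ICL (isocitrate lyase) and MLS (malate synthase) are its 2 dedicated enzymes, known from the use of stored lipid in seedlings and from senescence. ICL was at 12.83, 12.70 and 13.0 on the gox2-labelled arrays, against 9.52, 10.38 and 9.36 on the WT-labelled arrays (log2 fold change 3.09, SE 0.84, adjusted p = 0.0312). MLS was at 10.43, 10.25 and 10.13 on the gox2-labelled arrays, against 8.22, 8.50 and 8.65 on the WT-labelled arrays (log2 fold change 1.82, SE 0.31, adjusted p = 0.00402). WT-labelled replicate 2 was the highest WT-labelled array for ICL and still below every gox2-labelled one. These were the 2 of 19 beta-oxidation and glyoxylate cycle genes that rose, against 3.67% of all features, and 0 fell. The 6-array fit added LACS7, an acyl-CoA synthetase (0.34, adjusted p = 0.00846), and the acyl-CoA oxidase genes ACX2 (0.29, adjusted p = 0.0172) and ACX1 (0.26, adjusted p = 0.0289). The median of the list was 0.12. None of 21 peroxisome biogenesis genes passed in the 27-array fit, and in the 6-array fit 1 was higher (PEX10, 0.29, adjusted p = 0.0336) and 1 lower. DIN2, a beta-glucosidase induced by darkness and low sugar, was at 12.20, 12.30 and 12.57 on the gox2-labelled arrays, against 8.66, 8.85 and 9.20 on the WT-labelled arrays (log2 fold change 3.45, SE 0.96, adjusted p = 0.0343). It was the 1 of 25 measured sugar starvation genes that rose, near the 3.67% of all features, with a list median of -0.03. In the 6-array fit, the calls were 7 of them higher and 3 lower, against 9.53% and 8.06% of all features, so the list went both ways.

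Photorespiration is the pathway GOX2 belongs to, and 3 of its genes were lower by small amounts. Of 24 genes 0 rose and 3 fell in each fit, with a median of -0.09. Over all features 4% were lower in the 27-array fit and 8.06% in the 6-array fit. PGLP1, which makes glycolate from phosphoglycolate, was at 14.09, 14.02 and 13.89 on the gox2-labelled arrays, against 14.31, 14.38 and 14.56 on the WT-labelled arrays (log2 fold change -0.42, SE 0.09, adjusted p = 0.0116). AT5G36790, a near-identical copy of it, fell by 0.33 (adjusted p = 0.0274), and probes of these 2 loci may share signal. LrgB, the plastid transporter of glycolate and glycerate, fell by 0.29 (adjusted p = 0.018). Of 23 catalases and scavengers of reactive oxygen species, APX2, an ascorbate peroxidase, rose (0.88, adjusted p = 0.0302) and FSD3, an iron superoxide dismutase of plastids, fell (-0.33, adjusted p = 0.0456). These counts were near the shares over all features, 3.67% higher and 4% lower. The catalase genes are in the list, and none of them passed in the 27-array fit. Of the scavengers 3 were higher and 2 lower in the 6-array fit, against 9.53% and 8.06% of all features. Of 10 NADPH oxidase genes, whose products make superoxide at the plasma membrane, RBOHA rose. Its level was 10.56, 10.48 and 10.55 on the gox2-labelled arrays, against 9.72, 9.68 and 9.54 on the WT-labelled arrays (log2 fold change 0.89, SE 0.24, adjusted p = 0.0329). RBOHA was the 1 member called in the 27-array fit, against 3.67% of all features higher. The 6-array fit called 4 members of that family higher and 1 lower, against 9.53% and 8.06%.

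NDB2 and BCS1, marker genes of mitochondrial stress, and 4 heat shock genes were higher on the gox2-labelled arrays. Of 8 mitochondrial stress genes 2 rose in the 27-array fit and 7 in the 6-array fit, against 3.67% and 9.53% of all features. Their median was 0.81. NDB2, an alternative NADH dehydrogenase, was at 12.37, 12.31 and 12.39 on the gox2-labelled arrays, against 11.55, 11.49 and 11.51 on the WT-labelled arrays (log2 fold change 0.84, SE 0.23, adjusted p = 0.0342). BCS1, an AAA-ATPase of the outer mitochondrial membrane, rose by 0.73 (adjusted p = 0.0294). The alternative oxidase genes AOX1D (2.27) and AOX1A (0.90) missed in the 27-array fit (adjusted p = 0.0608 and 0.145) and passed in the 6-array fit (adjusted p = 0.00267 and 0.00127). NDB4, a further alternative NADH dehydrogenase outside the list, was at 9.51, 9.77 and 9.46 on the gox2-labelled arrays, against 6.46, 6.84 and 6.83 on the WT-labelled arrays (log2 fold change 2.86, SE 0.69, adjusted p = 0.0192). In the heat shock list, 4 of 31 genes rose, against 3.67% of all features, and 0 fell. Of its members 30 had a positive log2 fold change, with a list median of 0.21. The 4 that rose were AT5G51440 (0.86, adjusted p = 0.021), the mitochondrial small heat shock protein gene HSP23.6-MITO (0.75, adjusted p = 0.0159), the disaggregase gene CLPB4 (0.55, adjusted p = 0.0114) and Hsp70b (0.43, adjusted p = 0.0282). In the 6-array fit 11 of the list were higher and 0 lower, against 9.53% and 8.06% of all features. Of 19 genes of the unfolded protein response in the endoplasmic reticulum, the transcription factor genes NAC103 (0.72, adjusted p = 0.00435) and BZIP60 (0.32, adjusted p = 0.0262) rose. In that list 0 fell, and over all features 3.67% were higher and 4% lower. The 6-array fit called 5 of the list higher and 0 lower, against 9.53% and 8.06%.

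Defence genes of the pipecolate and salicylate branches were among those higher on the gox2-labelled arrays. ALD1, the aminotransferase of pipecolate synthesis, was at 8.12, 8.11 and 7.89 on the gox2-labelled arrays, against 5.64, 6.54 and 6.04 on the WT-labelled arrays (log2 fold change 1.96, SE 0.43, adjusted p = 0.0132). PBS3, an enzyme of salicylate synthesis, was at 9.90, 9.56 and 10.13 on the gox2-labelled arrays, against 7.98, 8.79 and 8.49 on the WT-labelled arrays (log2 fold change 1.44, SE 0.42, adjusted p = 0.0428). The gox2-labelled values lay above all WT-labelled ones for both genes. NIMIN1, a regulator of NPR1, was lower (log2 fold change -1.07, SE 0.30, adjusted p = 0.0356), but its WT-labelled arrays spread widely, at 9.05, 8.02 and 7.83, and without WT-labelled replicate 1 its adjusted p was 0.211. In the list of 19 genes these were the 2 that rose and the 1 that fell, against 3.67% and 4% of all features. The 6-array fit called 8 higher and 1 lower, against 9.53% and 8.06%, and the median was 0.22. The camalexin enzyme genes CYP71A12 (2.52) and PAD3 (1.15) and the N-hydroxypipecolate synthase gene FMO1 (2.01) missed in the 27-array fit (adjusted p = 0.0597, 0.134 and 0.0532). Their adjusted p values in the 6-array fit were 0.000289, 0.00112 and 0.000941.

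Of 42 genes of rapid stress signalling 3 rose and 0 fell, against 3.67% and 4% of all features, with a median of 0.08. FRK1, a receptor kinase induced by flagellin, was at 8.61, 8.48 and 8.44 on the gox2-labelled arrays, against 6.01, 6.77 and 6.52 on the WT-labelled arrays (log2 fold change 2.08, SE 0.46, adjusted p = 0.0134). WRKY53, a factor of senescence and defence, was at 10.35, 10.46 and 10.43 on the gox2-labelled arrays, against 9.11, 9.06 and 9.10 on the WT-labelled arrays (log2 fold change 1.32, SE 0.39, adjusted p = 0.0414). ERF2, an ethylene response factor, rose by 0.46 (adjusted p = 0.0282). The 6-array fit called 10 of the list higher and 8 lower, against 9.53% and 8.06% of all features. The lowest was the cold-response factor gene CBF1 (-0.88, adjusted p = 0.00149). Of 35 jasmonate genes, the repressor gene JAZ12 rose by 0.39 (adjusted p = 0.0408), with overlapping arrays, and AOC1, an allene oxide cyclase of jasmonate synthesis, fell by 0.29 (adjusted p = 0.0219). The jasmonate list had a median of -0.01. Its 27-array counts were near the shares over all features, and so were its 6-array counts of 4 higher and 3 lower. Of 16 abscisic acid response genes, the phosphatase genes HAI1 (1.24, adjusted p = 0.0369) and ABI1 (0.62, adjusted p = 0.0222) rose and 0 fell, against 3.67% and 4% of all features. The 6-array fit called 3 of them higher and 2 lower, against 9.53% and 8.06%. None of 13 hypoxia core genes passed in the 27-array fit. In the 6-array fit 2 were higher and 2 lower, against 9.53% and 8.06% of all features.

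Methionine-derived glucosinolates are sulfur compounds of defense, and the count of their synthesis genes that fell in the 27-array fit was near the share over all features. CYP79F2, which makes the aldoxime of long-chain aliphatic glucosinolates, was at 12.40, 12.40 and 12.43 on the gox2-labelled arrays, against 13.55, 13.42 and 13.31 on the WT-labelled arrays (log2 fold change -1.02, SE 0.29, adjusted p = 0.0377). It was the 1 of 22 members that fell in the 27-array fit, against 4% of all features, where 0 rose, and the median was -0.23. There were 11 lower in the 6-array fit, against 8.06% of all features, among them the MYB factor gene MYB29 (-1.09, adjusted p = 0.00099), BCAT4 (-0.80, adjusted p = 0.00125) and MAM1 (-0.63, adjusted p = 0.00315), which start the chain elongation of methionine. That fit called 1 higher, the glucosyltransferase gene UGT74B1 (0.42, adjusted p = 0.00629).

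Of 26 circadian clock genes 5 rose and 1 fell in each fit, with a median of 0.11. Over all features 3.67% rose and 4% fell in the 27-array fit, and 9.53% and 8.06% in the 6-array fit. PRR9, a pseudo-response regulator expressed in the morning, was at 11.21, 11.31 and 11.35 on the gox2-labelled arrays, against 10.22, 10.23 and 10.15 on the WT-labelled arrays (log2 fold change 1.09, SE 0.33, adjusted p = 0.0479). GI, which peaks late in the day, was at 12.37, 12.41 and 12.42 on the gox2-labelled arrays, against 11.65, 11.74 and 11.73 on the WT-labelled arrays (log2 fold change 0.69, SE 0.19, adjusted p = 0.0316). AT5G64170 (0.71, adjusted p = 0.0174), the morning MYB factor gene CCA1 (0.41, adjusted p = 0.0126) and PRR3 (0.32, adjusted p = 0.0253) also rose, and the TCP factor gene TCP11 fell (-0.70, adjusted p = 0.0499). The sources used here give no hour of harvest. Of 17 genes of metal transport and metallothioneins, NRT1.8 rose, a nitrate transporter that unloads the xylem and is known to respond to Cd. It was at 13.37, 13.23 and 13.27 on the gox2-labelled arrays, against 12.42, 12.45 and 12.41 on the WT-labelled arrays (log2 fold change 0.86, SE 0.25, adjusted p = 0.0415). HMA4, the pump that loads zinc and Cd into the xylem, had a log2 fold change of -0.16 (adjusted p = 0.42). NRT1.8 was the 1 metal gene called in the 27-array fit, against 3.67% of all features higher. Of these metal genes 2 were higher and 1 lower in the 6-array fit, against 9.53% and 8.06%. None of 8 nitrate uptake and reduction genes passed in the 27-array fit. In the 6-array fit 1 was lower, against 8.06% of all features, the nitrate reductase gene NIA1 (-0.24, adjusted p = 0.0415).

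The suberin genes MYB39, MYB41 and FAR1 were higher, and Casparian strip genes were lower in the 6-array fit only. Suberin is a lipid polymer that seals root endodermal cells, and CASP proteins place the Casparian strip in the same cells. MYB39 was at 9.46, 9.29 and 9.41 on the gox2-labelled arrays, against 7.26, 7.81 and 7.16 on the WT-labelled arrays (log2 fold change 1.97, SE 0.52, adjusted p = 0.0279). MYB41, another MYB factor that drives suberin synthesis, was at 8.15, 7.90 and 7.79 on the gox2-labelled arrays, against 5.88, 6.92 and 6.29 on the WT-labelled arrays (log2 fold change 1.59, SE 0.42, adjusted p = 0.028). FAR1, a fatty acyl reductase of suberin synthesis, was at 13.51, 13.44 and 13.54 on the gox2-labelled arrays, against 12.51, 12.35 and 12.39 on the WT-labelled arrays (log2 fold change 1.08, SE 0.29, adjusted p = 0.0282). The labels' arrays did not overlap in these 3 genes. They were the 3 of 24 members that rose, against 3.67% of all features, and 0 fell. In the 6-array fit 4 were higher and 6 lower, against 9.53% and 8.06% of all features. Those lower included CASP1 (-0.70, adjusted p = 0.00155) and CASP2 (-1.02, adjusted p = 0.00455). CASP1 and CASP2 had adjusted p values of 0.289 and 0.388 in the 27-array fit.

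The marker lists of tissues share 7 genes with the suberin list, all of them root markers. Of 20 root markers, RHD6, a root hair factor (1.04, adjusted p = 0.0196), and EIR1, an auxin efflux carrier (0.67, adjusted p = 0.0144), rose, 0 fell, and the median was -0.15. In the 6-array fit 2 root markers were higher and 8 lower, the lowest being MRN1, a marneral synthase of roots (-1.28, adjusted p = 0.000949). Over all features 3.67% were higher and 4% lower in the 27-array fit, and 9.53% and 8.06% in the 6-array fit. All 20 leaf photosynthesis markers had a negative log2 fold change, with a median of -0.08, and 0 were higher and 2 lower in the 6-array fit. RBCS1B, a small subunit of RuBisCO, was the 1 that fell in the 27-array fit, at 11.14, 11.33 and 11.46 on the gox2-labelled arrays, against 12.33, 12.24 and 12.28 on the WT-labelled arrays (log2 fold change -0.98, SE 0.17, adjusted p = 0.00474). The mean of the leaf markers, relative to each gene's mean over the 27 arrays, was -0.11 to -0.07 on the gox2-labelled arrays and 0.02 to 0.06 on the WT-labelled ones. Root genes such as CASP1 (13.47, 13.50 and 13.41 on the gox2-labelled arrays, against 14.12, 14.21 and 14.16 on the WT-labelled arrays) were measured at high levels although the tissue is labelled leaves. Of 10 seed storage genes the oleosin gene OLEO2 rose (0.55, adjusted p = 0.0382) and the albumin gene SESA4 fell (-1.49, adjusted p = 0.026), both at dim levels. In the 6-array fit 2 of the list were higher and 2 lower, against 9.53% and 8.06% of all features. The list's mean was -0.47 to -0.37 on the gox2-labelled arrays and -0.39 to -0.15 on the WT-labelled ones. The part of tissue composition in the differences above was not tested.

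The study's own list of 101 early genes was chosen partly on these arrays and is no independent evidence of its direction. Of its members 7 rose and 3 fell in the 27-array fit, against 3.67% and 4% of all features. The 6-array fit called 43 higher and 3 lower, against 9.53% and 8.06%, and the median was 0.25. Beside UGT74E2, GSTU25 and GSTU24 the 7 included AT1G26380 (1.25, adjusted p = 0.042) and the stress-associated zinc finger gene SAP10 (0.94, adjusted p = 0.00513).

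**Figure D3:**
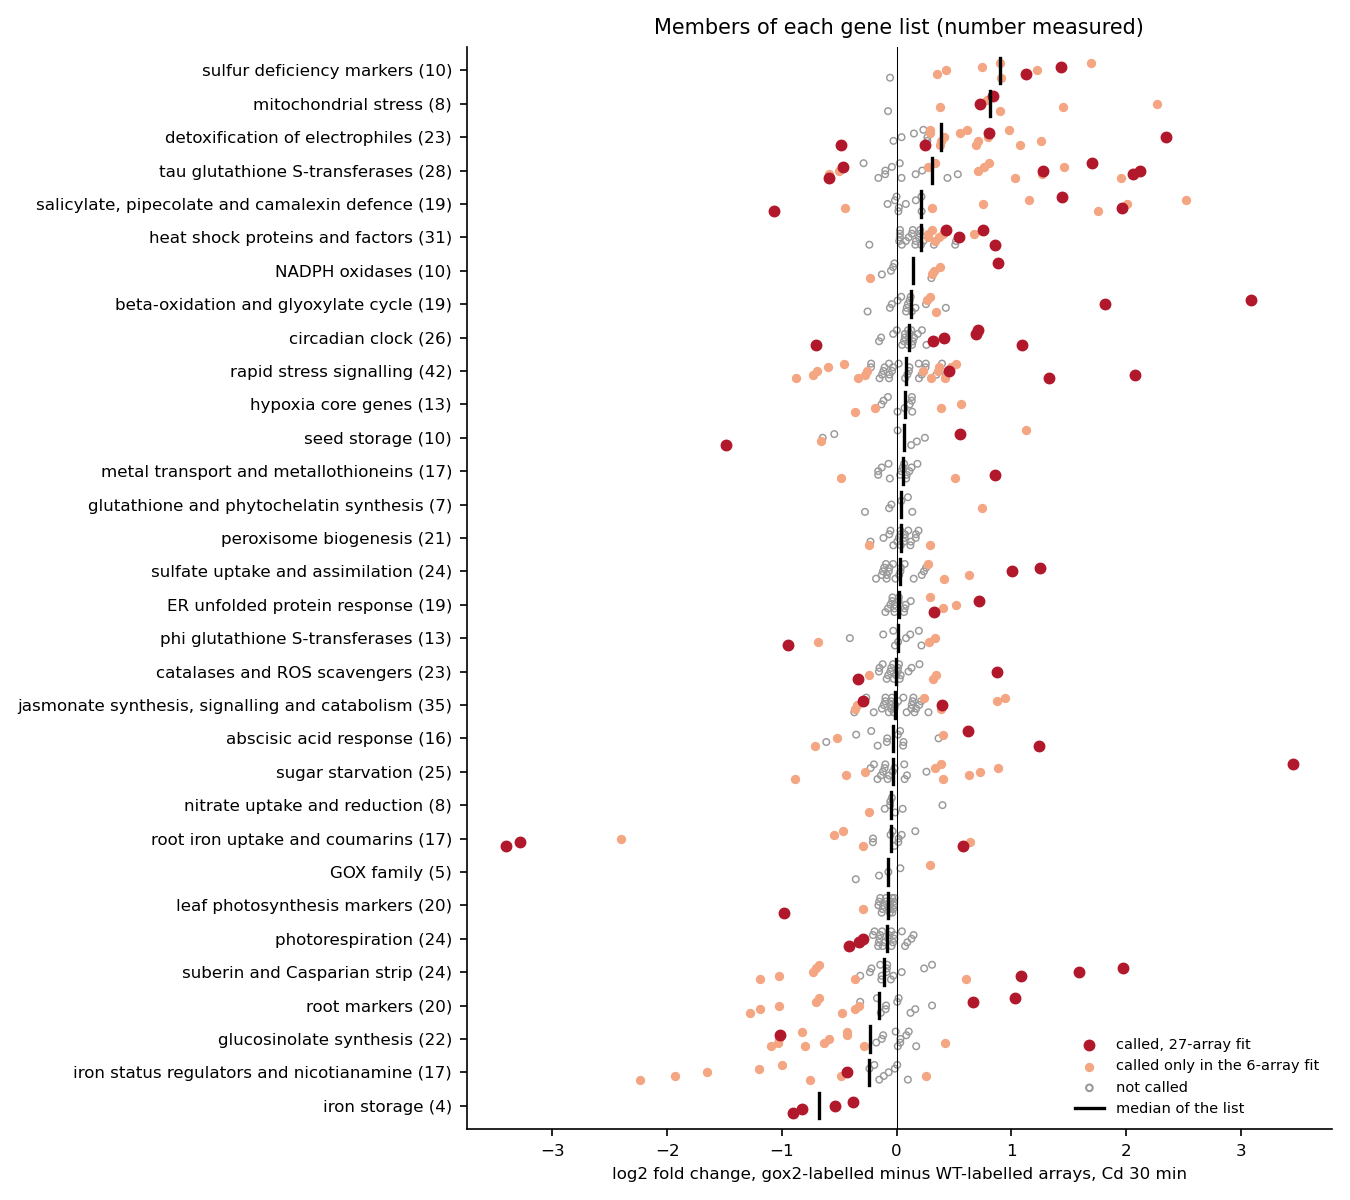
Log2 fold change (gox2-labelled minus WT-labelled arrays, Cd 30 min) of each measured member of 32 gene lists, with the number measured in brackets and a bar at the list's median. Dark points passed in the 27-array fit, light points passed in the 6-array fit only, and open points in neither. Sulfur deficiency (0.90) and mitochondrial stress (0.81) have the highest medians and iron storage (-0.68) the lowest.

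The gene with the largest rise was AT3G54530, at 10.30, 10.48 and 10.07 on the gox2-labelled arrays, against 6.03, 6.47 and 6.63 on the WT-labelled arrays (log2 fold change 3.91, SE 0.90, adjusted p = 0.016). AT3G54520, with the locus number next to it, was at 8.48, 8.57 and 8.01 on the gox2-labelled arrays, against 5.02, 4.87 and 5.20 on the WT-labelled arrays (log2 fold change 3.32, SE 0.63, adjusted p = 0.007). Neither has a name in the RefSeq table, and both lay near the low end of the scale on the WT-labelled arrays. The other rises among the 15 largest, apart from DIN2, ICL, NDB4 and UGT74E2 above, were AT4G11393 (3.24), AT1G55230 (3.03), AT4G11170 (2.99), AT1G76470 (2.94), AT5G40000 (2.61), AT5G44990 (2.40), AT4G16820 (2.40), AT5G53680 (2.35) and AT3G46840 (2.27). AT4G11170 is listed as RMG1 and AT4G16820 as a phospholipase A. AT5G46890 and AT5G46900 fell most. AT5G46890 was at 6.45, 6.42 and 6.09 on the gox2-labelled arrays, against 10.42, 10.34 and 10.28 on the WT-labelled arrays (log2 fold change -4.02, SE 1.05, adjusted p = 0.0275). AT5G46900 was at 6.81, 6.83 and 6.94 on the gox2-labelled arrays, against 10.41, 10.52 and 10.42 on the WT-labelled arrays (log2 fold change -3.59, SE 1.06, adjusted p = 0.0432). Their locus numbers are close, and neither has a name in the RefSeq table. CYP82C3, a relative of CYP82C4 at the next locus number, fell by 2.17 (adjusted p = 0.00817), and AT4G11210 (-2.10), AT1G34520 (-2.07) and ZIP8 (-2.03), a zinc transporter locus annotated as a transcribed pseudogene, were also lower.

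The remaining 7 of the 15 largest falls were AT3G43528, AT1G33300, AT2G07770, AT5G28781, AT5G26070, AT3G28291 and AT4G08132, of which 4 (AT3G43528, AT1G33300, AT2G07770 and AT4G08132) are annotated as pseudogenes. AT3G43528 was at 6.62, 6.92 and 8.27 on the gox2-labelled arrays, against 10.55, 9.04 and 8.31 on the WT-labelled arrays (log2 fold change -2.03, SE 0.52, adjusted p = 0.0261), and AT1G33300 was at 6.28, 6.51 and 7.54 on the gox2-labelled arrays, against 10.12, 8.28 and 7.68 on the WT-labelled arrays (log2 fold change -1.92, SE 0.48, adjusted p = 0.0238). For both, replicate 1 was the highest WT-labelled array and replicate 3 the highest gox2-labelled array. Without WT-labelled replicate 1 their adjusted p values were 0.160 and 0.143, and in the 6-array fit 0.0854 and 0.0971. The 455 features called lower in the 27-array fit but not in the 6-array fit were grouped after the values were seen, and that choice by itself favors features that vary between replicates. Their median levels were 6.64, 6.69 and 7.18 on the gox2-labelled arrays, against 8.53, 7.77 and 7.31 on the WT-labelled arrays, and 113 of them were pseudogenes. The 1028 features that both fits called lower were brighter, with medians of 10.68, 10.64 and 10.62 on the gox2-labelled arrays, against 11.15, 11.20 and 11.19 on the WT-labelled arrays, and 99 were pseudogenes. Both counts include transcribed pseudogenes. Of all 32627 loci, 3858 were typed as pseudogenes and 917 as transcribed pseudogenes.

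The 30 genes with the largest rises and falls were also set against the other 7 labelled groups. These genes were picked by the same difference, and the share over all features was not computed, so the counts have no background to be judged by. For all 30, WT Cd 24 h lay on the gox2 side of the midpoint between the 2 compared groups. WT Cd 24 h shared the slide of the gox2-labelled arrays, as did WT control and 35S::GOX2 control. The same held for 22 of 30 in 35S::GOX2 Cd 24 h, 16 in gox2 Cd 24 h, 14 in 35S::GOX2 Cd 30 min, 8 in gox2 control, 7 in WT control and 1 in 35S::GOX2 control. ICL averaged 12.84 ± 0.15 on the gox2-labelled and 9.76 ± 0.55 on the WT-labelled arrays after 30 min, 13.09 ± 0.02 in WT Cd 24 h and 9.98 ± 0.12 in WT control (SD, n = 3 each). FRO2 averaged 8.50 ± 0.13 and 11.78 ± 0.15 on the gox2-labelled and WT-labelled arrays after 30 min, 8.60 ± 0.14 in WT Cd 24 h and 11.95 ± 0.30 in WT control (SD, n = 3 each). FER1 averaged 13.65 on the gox2-labelled and 14.47 on the WT-labelled arrays, 13.45 in WT Cd 24 h and 14.23 in WT control. The groups gox2 Cd 24 h and 35S::GOX2 Cd 30 min spread by over 2 units between replicates for ICL and FRO2, with SDs of 2.05 and 2.11 for ICL and 2.25 and 2.47 for FRO2.

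**Figure D4:**
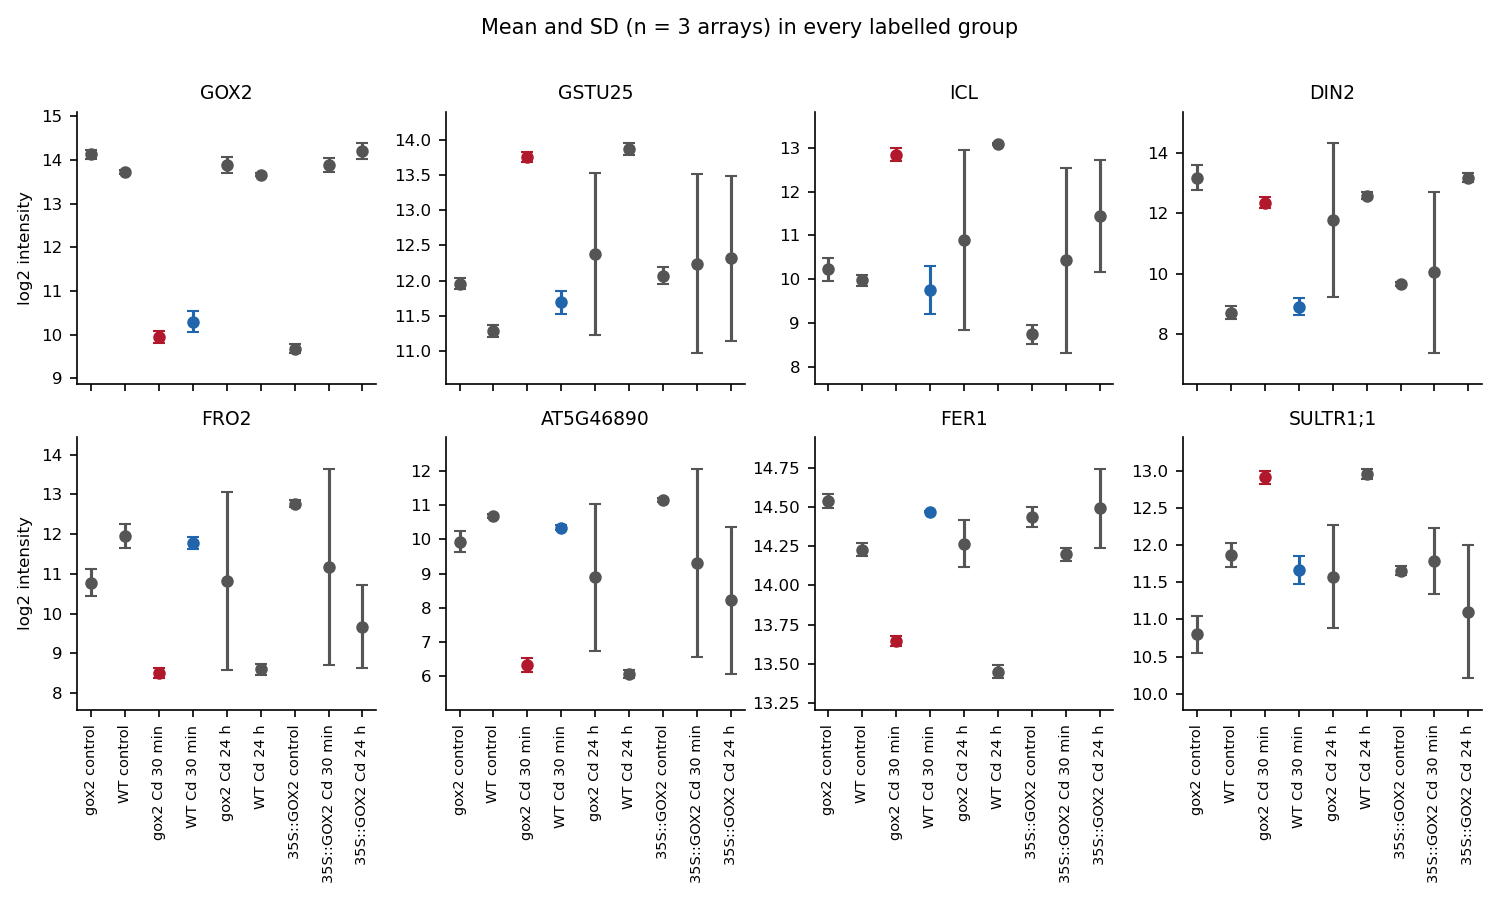
Mean log2 intensity and SD (n = 3 arrays) of 8 genes in the 9 labelled groups, with gox2 Cd 30 min in red and WT Cd 30 min in blue, and each panel has its own axis, which does not start at 0. Except for GOX2, the red point lies near WT Cd 24 h and the blue point nearer to WT control.

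The 30 min comparison was also set against that of the untreated groups, as the difference of the Cd responses of gox2 and WT. It passed for 10030 features (27%), 5211 higher and 4819 lower, but it rests on the gox2 control arrays, none of which lay closest to its own label and in which GOX2 was high against the label. The response difference was 2.31 for SULTR1;1 (adjusted p = 0.00174) and -1.13 for FER1 (adjusted p = 4.46e-05). SULTR1;1 averaged 10.80 ± 0.25 in gox2 control and 11.87 ± 0.16 in WT control (SD, n = 3 each). DIN2, ICL, FRO2 and GSTU25 did not pass this test, with adjusted p values of 0.599, 0.0794, 0.223 and 0.173. DIN2 was at 13.18 ± 0.41 in gox2 control, against 8.71 ± 0.22 in WT control (SD, n = 3 each), so a difference between the labels was there without Cd.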

How the data were processed

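RNA of the 27 samples was measured on single-color NimbleGen arrays. The deposited value of each feature is a linear intensity, which the authors had background-corrected, normalized and summarized by RMA. The genome build is not given in the sources used here, and limma is named in the submitters' notes without a role or version. The log2 of the intensity was quantile-normalized over the 27 arrays, whose medians were 10.02 to 10.17. Means of the 9 groups were estimated by limma (version 3.58.1, R version 4.3.3) and contrasts were moderated by eBayes. Labels were read with jsonlite 2.0.0. The p-values are two-sided, with Benjamini-Hochberg adjustment over 37118 features, and passed below 0.05. A locus was represented by its brightest feature, and 31993 of 32627 loci matched the RefSeq TAIR10.1 table. Samples were grouped by GEO label, and slides were inferred from the leading characters of each array's image identifier. Named genes are the 15 largest rises and 15 largest falls with non-overlapping arrays, the GOX family and up to 6 called members of each of 33 lists. Other genes, such as those passing only in the 6-array fit, were named after their values were seen. The members and lists were chosen with earlier results of these data known. The alternatives were normalization, source table, dim features, locus means, fold limit, arrays in the fit, replicate block, slide and leaving out single arrays. Comparisons of other groups were left out.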

Additional observations from a re-analysis of the deposited data

Results flagged for a closer look

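For 10030 features the gox2 minus WT difference after 30 min of Cd was not the same as the difference without Cd, by limma's test of the interaction. Among the 98 named genes this held for 51, against 27% of all features. Most of these genes were chosen by the difference after 30 min, which is part of this test. The count is therefore no independent evidence of a changed response. The values below are the log2 response difference of gox2 minus that of WT. All rest on the gox2 control arrays, none of which lay closest to an array of its own label, and 109 features passed with slide as a random block. The highest were those of AT3G54530 (4.79), AT3G54520 (3.77), MYB41 (3.53), AT5G40000 (3.34), ALD1 (3.33), NDB4 (3.30), AT5G44990 (3.20) and MYB39 (3.10). They were followed by AT5G53680 (2.90), AT1G76470 (2.70), AT4G16820 (2.63), SULTR1;1 (2.31), AT3G46840 (2.24), MLS (1.69), FAR1 (1.59) and GSTU22 (1.57). Lower positive values were those of RBOHA (1.49), RHD6 (1.43), APX2 (1.37), EIR1 (0.96), NDB2 (0.91), SULTR1;2 (0.82), NAC103 (0.82) and GI (0.74). The smallest positive values were those of AT5G64170 (0.73), ABCG37 (0.66), ABI1 (0.61), CLPB4 (0.56) and CCA1 (0.37). The most negative values were those of AT3G43528 (-5.05), AT4G08132 (-3.54), AT5G28781 (-3.47), AT1G33300 (-3.15), AT3G28291 (-2.79), AT2G07770 (-2.73), SESA4 (-2.18) and RBCS1B (-1.98). Next came GSTF12 (-1.63), NIMIN1 (-1.34), FER1 (-1.13), FER4 (-0.91), AOC1 (-0.78), GOX2 (-0.76), FER3 (-0.75) and FSD3 (-0.69). Smaller negative values were those of NAS3 (-0.67), GSTU18 (-0.52), PGLP1 (-0.50), LrgB (-0.39), GOX1 (-0.35) and AT5G36790 (-0.34). GOX2 and GOX1 are among the negative values although neither passed between the labels after 30 min. Groups of 3 arrays are too small for a test of single outlying arrays.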

How the results depend on the processing

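The count of 2846 calls between the labels moved with the arrays in the fit, the fold limit and the treatment of slide. It was 6529 with the 6 arrays alone, 10354 with the 15 arrays of the 5 groups whose arrays were closest to their own label (chosen after seeing the data), 521 with a log2 fold change of at least 1 as well, and 7 with slide as a random block, where the estimated correlation within a slide was 0.236. The slide estimate rests on gox2 Cd 24 h, the only group with arrays on more than 1 slide, and the compared labels lay on different slides. The 15-array fit shared 2835 calls with the 27-array fit. Leaving out 1 array gave 421 to 2913 calls. No between-array normalization (3195), the table of the whole series (2846), leaving out the dimmest 25% of features (2835) and the mean per locus (2495) stayed within 1.5 times. Of 98 named genes, 92 lost their call with slide as a random block, 7 with the 6 arrays alone, and 40 to 75 when 1 array was left out. HAOX1, with a log2 fold change of 0.03, lay between -0.0103 (without gox2-labelled replicate 1, adjusted p = 0.960) and 0.0911 when 1 array was left out. For the difference of Cd responses (10030), the count was 2949 with the fold limit and 109 with slide as a random block, and 7093 to 10646 when 1 array was left out. The replicate numbers were not used to pair the arrays. Same-numbered deviations correlated at -0.388, 0.06 and -0.532, but with 3 arrays a group these values cannot show whether replicates were paired. With replicate number as a block 3340 features passed, 2752 of them shared with the fit without it, and 10102 passed for the response difference. The files hold no detection value, so signal over background is unknown, and 3 arrays a group limit the precision.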

Other observations

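A handful of genes outside the lists passed with slide as a random block, and they are named here after their values were seen. Passing that fit does not separate slide from label, since the compared labels lay on different slides. SKS2 averaged 7.83 on the gox2-labelled arrays and 6.01 on the WT-labelled arrays, with a log2 fold change of 1.82 (adjusted p = 4.3e-05, and 0.00612 with the slide block). LOG5, of the family of enzymes that activate cytokinins, averaged 9.83 on the gox2-labelled arrays and 8.36 on the WT-labelled arrays (1.47, adjusted p = 0.000657, and 0.0251 with the slide block). ABCG1, an ABC transporter of the suberin barrier, averaged 11.93 on the gox2-labelled arrays and 11.15 on the WT-labelled arrays (0.77, adjusted p = 0.000657, and 0.0335 with the slide block). AT1G06330 (1.18), AT4G29990 (1.24) and AT5G60520 (1.44) were also higher on the gox2-labelled arrays, and with FER1 these 7 make up the calls of that fit.

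By the gene types of the RefSeq table, also grouped after the values were seen, 20 of 187 lncRNA loci were higher (10.7%) and 5 lower (2.67%) on the gox2-labelled arrays. Of 3858 pseudogene loci 73 were higher (1.89%) and 163 lower (4.22%). Of 917 transcribed pseudogene loci 22 were higher (2.4%) and 48 lower (5.23%). Of 26490 protein-coding loci 920 were higher (3.47%) and 1102 lower (4.16%), so the share of pseudogene loci that were lower was near that of protein-coding loci. Over all 32627 loci 1070 were higher and 1372 lower. The median level of pseudogene loci was 5.17, against 10.91 for protein-coding loci.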
